A study of Mus musculus with 2 samples.

Results

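The nuclei described here are 2261 of the 5214 rod-annotated nuclei in the single-nucleus RNA-seq (snRNA-seq) library of Cre− control retinas, which held 7357 nuclei in all. They are the rod-annotated nuclei of clusters 21, 25, 32, 38, 40 and 44 in the authors' annotation, with 451, 133, 568, 521, 290 and 298 nuclei. These clusters held 43.4% of the rod-annotated nuclei and 33.6% of their unique molecular identifiers (UMIs, 1 for each captured transcript), and no Cre− nucleus of another annotated type. They were chosen on measured values, since rod genes were not prominent among their leading genes and transcripts such as Rps19 and Rps23 were. Each cluster was compared with the 2953 rod-annotated nuclei of the 9 remaining rod clusters of the same library, called the other rods below.

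Retinas of C57 BL/6J mice at postnatal day 21 were used. The label gives the control genotype as WT, and the study's methods describe age-matched Cre-negative animals from Cre-negative breeders of a line with floxed Tet1, Tet2 and Tet3. The series also holds a Tet tcKO library, in which those alleles were recombined by a Chx10-driven Cre in retinal progenitor cells. It is used here only for a count, as 6 of its nuclei were annotated as rods and 4 of these lay in the 6 clusters. Nuclei of 2 dissociation pools, each of several retinas, entered the reaction of each genotype, and the deposited nuclei carry no pool. With 1 library, and with clusters formed from the same counts that are compared, no test was possible, and every value below is a description. Intervals are at the 95% level and cover counting error only.

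Rods are the light-sensing neurons that make up most of the mouse retina. They detect light in a modified cilium, the outer segment, and are packed with mitochondria in the inner segment. Nuclear preparations mainly hold pre-mRNA and nuclear long non-coding RNA. Transcripts of the mitochondrial genome and mature mRNAs of ribosomal proteins lie in the cytoplasm, so they reach a nuclear library with cytoplasm that stays attached or with RNA set free by homogenisation. Red blood cells carry mostly globin mRNA, and retinal vessels are lined by endothelial cells wrapped by mural cells.

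Rod transcripts were present in all 6 clusters. Sag, which encodes rod arrestin (GRCm39 chr1:87731402-87772880), stood at 2644.6 UMIs per 1000000 UMIs (CPM) in the other rods. Its level was 2137.2 CPM in cluster 21, 2040.7 in 25, 1903.5 in 32, 2196.5 in 38, 2068.2 in 40 and 1745.8 in 44. All 6 values were below that of the other rods and above the amacrine level of 599.8 CPM and the retinal ganglion cell (RGC) level of 473.9 CPM. Amacrine cells and RGCs are not known to express Sag, so their level serves as a background, and its source was not tested. The label of the clusters as lacking leading rod genes therefore refers to their rank among leading genes, and rod transcripts were not absent.

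Rps23 and Rps19, which encode proteins of the small ribosomal subunit, were higher. Rps23 (GRCm39 chr13:91071077-91085586) stood at 149.4 CPM in the other rods and at 365.9, 289.6, 317.3, 237.9, 315.2 and 429.3 CPM in clusters 21, 25, 32, 38, 40 and 44. Rps19 (GRCm39 chr7:24583796-24589231) stood at 153.5 CPM in the other rods and at 299.2, 230.4, 287.8, 194.3, 359.5 and 379.2 CPM in the same order. Cluster 44 was highest for both and cluster 38 lowest of the 6 for both. These 3 genes marked the clusters from the start, so their levels are no finding.

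**Figure D1:**
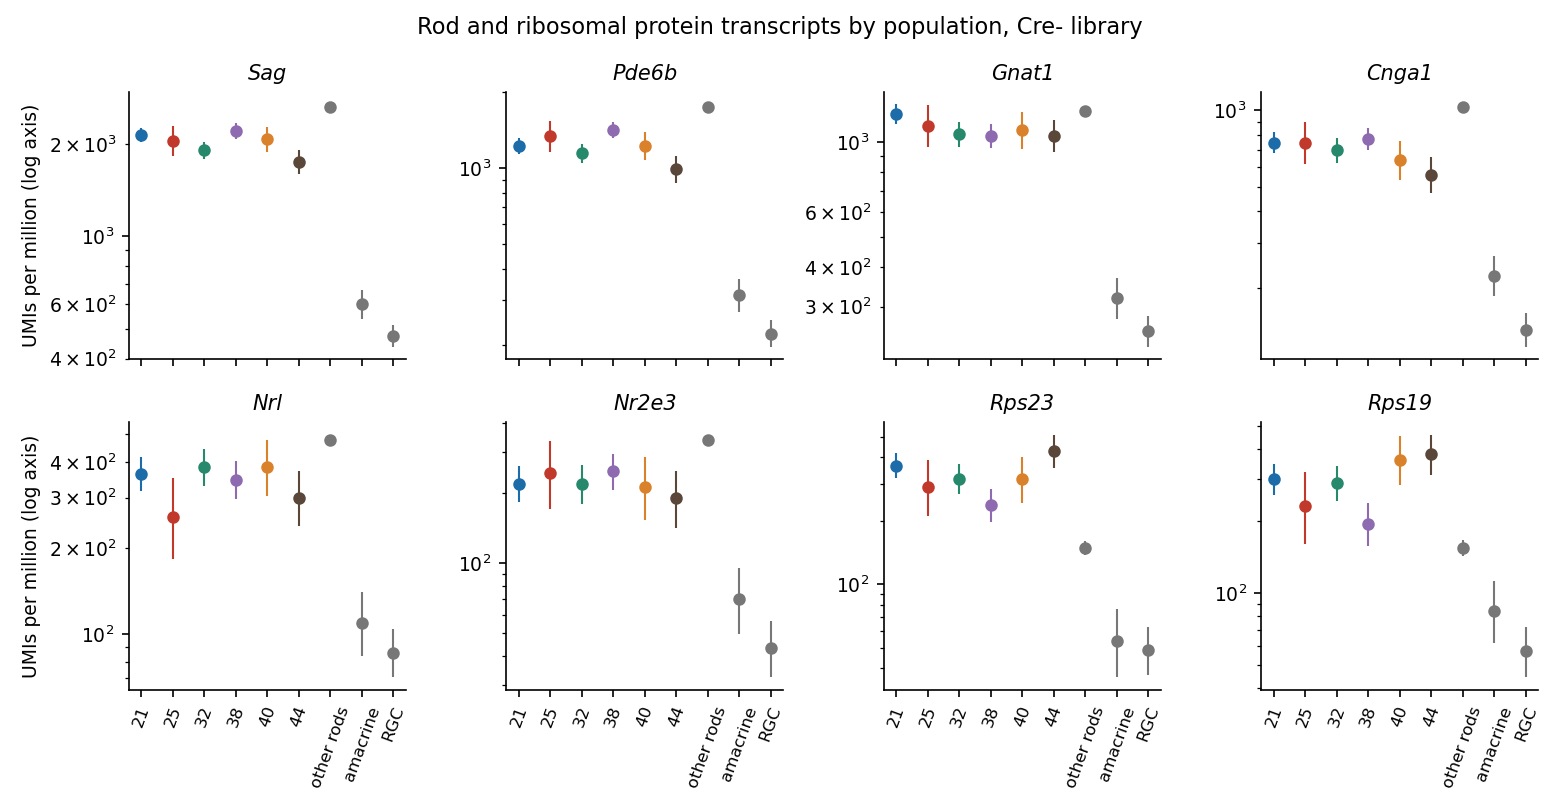
Levels of 6 rod genes and of Rps23 and Rps19 (CPM, log axis, scale set per panel) in the 6 clusters, the other rods, amacrine cells and RGCs of the Cre− library, with 95% exact Poisson intervals as bars. Sag, Pde6b, Cnga1 and Nr2e3 lay below the other rods and above both background classes in the 6 clusters, and both ribosomal protein genes lay above the other rods.

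Mitochondrially encoded transcripts were above the other rods in all 6 clusters. The 13 protein-coding genes of the mitochondrial genome held 5.71% of UMIs in the other rods. They held 11.7% in cluster 21, 8.21% in 25, 10.9% in 32, 8.19% in 38, 13.5% in 40 and 13.8% in 44. The log2 ratio to the other rods was 1.04 (1.02 to 1.05), 0.52 (0.50 to 0.55), 0.94 (0.92 to 0.95), 0.52 (0.50 to 0.53), 1.24 (1.23 to 1.26) and 1.27 (1.25 to 1.28) in that order. Clusters 40 and 44 were thus highest and clusters 25 and 38 lowest of the 6. Cluster 34 of the other rods was close to clusters 25 and 38, at 7.84% of UMIs.

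The most abundant of these transcripts was mt-Co3, a subunit of cytochrome c oxidase, at 17098.1 CPM in the other rods. It reached 37006.9, 25949.2, 34996.4, 25699.7, 43920.4 and 44918.4 CPM in clusters 21, 25, 32, 38, 40 and 44, and had a UMI in every nucleus of them. Its part of all mitochondrially encoded UMIs was 31.4% to 32.6% in the 6 clusters and 29.9% (29.8 to 30.1) in the other rods, so the mixture of these transcripts shifted little while their total differed. Of the 13 genes, 13, 11, 11, 12, 13 and 13 were above the other rods in the 6 clusters. The exceptions were mt-Nd6 and mt-Nd4l, subunits of complex I, in cluster 25, mt-Nd6 and mt-Atp8 in cluster 32, and mt-Atp8 in cluster 38. mt-Atp8, a subunit of ATP synthase, made up 1.15% of mitochondrially encoded UMIs in the other rods and 0.560% to 0.882% in the 6 clusters.

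The same order appeared nucleus by nucleus. The mitochondrial percent that the authors deposited for each nucleus, on a gene set not given in the sources used here, had a median of 9.51 in the other rods. The medians were 15.4, 12, 14.6, 11.6, 17.5 and 17.8 in clusters 21, 25, 32, 38, 40 and 44. Nuclei at 15% or more were 2.44% of the other rods and 55.2%, 11.3%, 44%, 8.25%, 81.0% and 88.9% of the 6 clusters. Among the other rods, cluster 34 was close to cluster 38, with a median of 11.3 and 8.59% of nuclei at 15% or more. Cluster 45 had a median of 14.1 and 36.4%. The authors kept nuclei under 20%, and 202 nuclei of the 6 clusters against 7 of the other rods, all of cluster 34, lay within 1 percentage point of that limit. Depth moved with the clusters too. The median was 1144, 1004, 811, 925, 702.5 and 912.5 UMIs per nucleus in the 6 clusters and 1232 in the other rods. With every nucleus thinned to 500 UMIs, the mitochondrial log2 ratios were 0.97, 0.50, 0.91, 0.46, 1.22 and 1.25, close to those above.

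**Figure D2:**
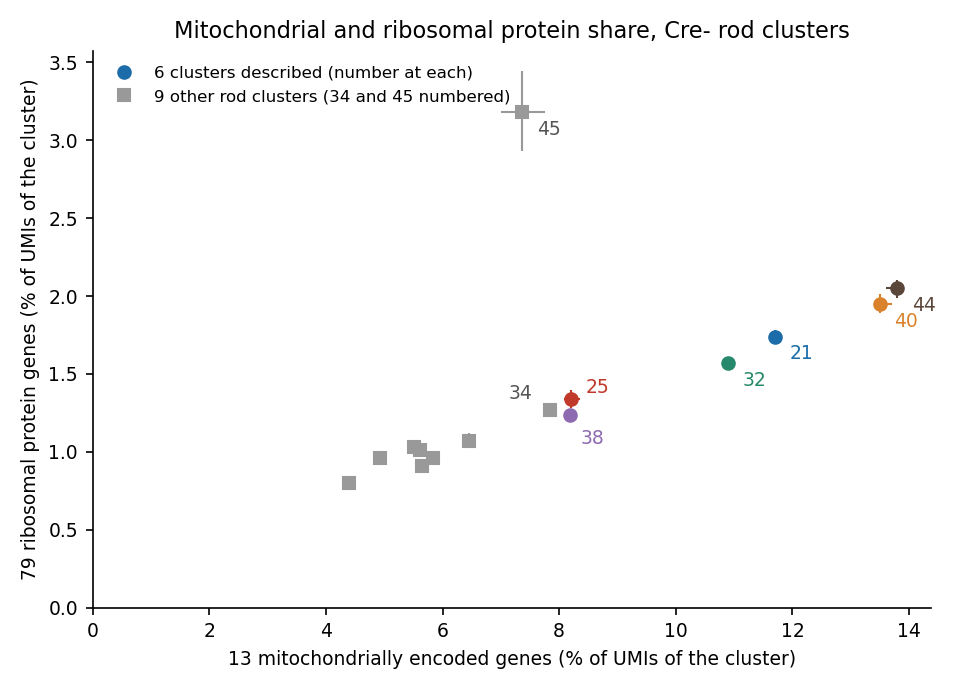
Share of UMIs from 79 ribosomal protein genes (y axis, percent) against the share from 13 mitochondrially encoded genes (x axis, percent) in the 15 Cre− rod clusters, with 95% exact binomial intervals as bars (mostly smaller than the symbols). Clusters 40 and 44 lie farthest to the right, clusters 25 and 38 lie next to cluster 34 of the other rods, and cluster 45 stands apart at 3.18% ribosomal protein.

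Ribosomal protein mRNAs followed the mitochondrial share. The list held 79 genes of both subunits, 0.998% of UMIs in the other rods and 1.27% in cluster 34 among them. They held 1.74%, 1.34%, 1.57%, 1.24%, 1.95% and 2.05% in clusters 21, 25, 32, 38, 40 and 44. The log2 ratio was 0.80 (0.77 to 0.84), 0.42 (0.36 to 0.49), 0.65 (0.62 to 0.69), 0.32 (0.28 to 0.35), 0.97 (0.92 to 1.01) and 1.03 (0.99 to 1.07). Above the other rods were 79, 68, 78, 69, 79 and 78 of the 79 genes, with median log2 ratios of 0.81, 0.44, 0.63, 0.31, 0.98 and 1.03. Over all genes with 20 or more UMIs in the pooled sum, 38%, 42.3%, 36.2%, 41.0%, 28.3% and 36.0% lay above the other rods, and the medians were -0.14, -0.12, -0.17, -0.10, -0.39 and -0.22. Rpl10a was the lowest member in every cluster except 25, at 0.07 in cluster 21 and -0.47 in cluster 44. Many of these genes have processed pseudogenes of near-identical sequence, so levels of single members are less certain than the sum. Rps19 and Rps23, which marked the clusters, are members of the list. The clusters were chosen on transcripts of this kind, so the direction of the list is no independent finding.

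Over the 15 rod clusters, the mitochondrial and ribosomal protein shares had a Pearson r of 0.57 and a Spearman correlation of 0.85, and an r of 0.46 without clusters 40 and 44. The points share 1 library and the same total in each cluster, and both measures helped to form the clusters, so this is given as a description. Cluster 45, 22 nuclei of the other rods, departed from the order with 3.18% ribosomal protein and 7.37% mitochondrial UMIs. It also stood apart in rod phototransduction genes, at 12.5% of UMIs.

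Ribosomal protein mRNAs are known to begin with a run of pyrimidines that controls their translation. Start regions of ribosomal protein genes that led a cluster or marked the set are shown. Some hold a match to short pyrimidine motifs and some do not, a feature that was not used to choose the clusters. The sequences are from RefSeq (GRCm38.p6), 15 bases before and 15 after the annotated start on the strand given, with capitals marking the first match to the motif CTTTC, the motif CTTCC or the motif TTTCC, which can overlap where 1 run holds more than 1 of them.
Rps23, chr13:90923107-90923136, plus strand: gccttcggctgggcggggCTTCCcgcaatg
Rpl37, chr15:5116598-5116627, plus strand: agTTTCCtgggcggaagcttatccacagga
Rpl13, chr8:123102335-123102364, plus strand: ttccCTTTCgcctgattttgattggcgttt
Rpl37a, chr1:72711245-72711274, plus strand: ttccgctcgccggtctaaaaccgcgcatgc
Rps28, chr17:33824548-33824577, minus strand: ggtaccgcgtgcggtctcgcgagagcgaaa
Rps16, chr7:28350674-28350703, plus strand: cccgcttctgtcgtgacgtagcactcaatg
Rps19, chr7:24884577-24884606, plus strand, the first of 3 starts: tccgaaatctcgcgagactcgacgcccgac
Sag, chr1:87803665-87803694, plus strand, shown for comparison: caggccagctggatggctcgtgcatctttg
Rpl37a, Rps28, Rps16 and all 3 starts of Rps19 held none of these motifs. Pyrimidine runs of other sequence, as in Rps16, were not matched. The marked stretches of Rpl37 and Rpl13 lay before the annotated start, so a match is not a run at the start of the mRNA. A motif was present in 29 of 68 start regions of the 58 ribosomal protein genes that matched the table, or 42.6%, and in 17.6% on the other strand. All 32851 start regions of the table held one in 13.1% and 13.2%, and the 13 rod phototransduction genes that matched in 7.69%.

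Ribosomal protein genes with and without the motif had similar ratios. In clusters 21, 25, 32, 38, 40 and 44, the 28 ribosomal protein genes with a match had median log2 ratios of 0.79, 0.37, 0.66, 0.33, 1.01 and 1.08. The 30 matched genes without one had 0.81, 0.43, 0.63, 0.25, 0.97 and 0.93. A match describes these letters only.

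Counts of genes that differed by 2-fold or more were small in most clusters. Among genes at 50 CPM or more in the cluster or the other rods, 50 of 4646 (1.08%) were higher in cluster 21 and 24 (0.517%) lower. In cluster 25, 146 of 4960 (2.94%) were higher and 239 (4.82%) lower, of which 119 and 124 had an interval that left out 0. In cluster 32, 26 of 4683 (0.555%) were higher and 43 (0.918%) lower, and in cluster 38, 5 of 4636 (0.108%) were higher and 20 (0.431%) lower. Cluster 40 had 117 of 4620 (2.53%) higher and 426 (9.22%) lower, with intervals that left out 0 in 114 and 347. Cluster 44 had 167 of 4844 (3.45%) higher and 266 (5.49%) lower, 167 and 256 by interval. The shallow sums of clusters 25 and 40, where 50 CPM is 7.60 and 10.2 UMIs, add counting noise to their numbers. In simulated sums of the same depth, 216 of 4711 unchanged genes (4.59%) were 2-fold apart for cluster 25 and 114 of 4599 (2.48%) for cluster 40. For the remaining clusters the share was 0.111% to 1.20%.

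Ribosomal protein genes made up 17, 2, 4, 0, 37 and 45 of the genes 2-fold higher, from 79, 79, 79, 77, 79 and 79 tested. Mitochondrially encoded genes made up 6, 0, 1, 0, 10 and 10, from 13 tested in each cluster. Of all genes tested, 1.08%, 2.94%, 0.555%, 0.108%, 2.53% and 3.45% were 2-fold higher. The clusters were chosen on transcripts such as those of ribosomal proteins, so the ribosomal protein counts are given as a description. The median log2 ratio over the genes tested was -0.15, -0.04, -0.12, -0.06, -0.25 and -0.17. With median-of-ratios scaling, which moved these medians to 0.04, 0.07, 0.04, 0.03, 0.07 and 0.09, the numbers higher and lower became 114 and 6 in cluster 21, 218 and 175 in 25, 62 and 24 in 32, 9 and 13 in 38, 295 and 210 in 40, and 318 and 137 in 44. The split between higher and lower genes thus depended on the scaling, while the mitochondrial and ribosomal protein lists were above the other rods under both.

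Cluster 21 was led by Rps23, at a log2 ratio of 1.29 (1.06 to 1.52). After it came Gm2000 at 1.20 (0.91 to 1.48), Dbi, an acyl-CoA-binding protein, at 1.15 (0.92 to 1.37), Rpl37 at 1.14 and mt-Co3 at 1.11. Dbi was above the other rods in each of the 6 clusters, from 0.69 in cluster 25 to 1.42 in cluster 40. The lowest genes were Gas6, a secreted ligand for phagocytic receptors, at -0.93 (-1.29 to -0.58), the RNA-binding protein gene Hnrnph3 at -0.92 and the peroxisomal thiolase Acaa1a at -0.90.

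Cluster 32 was led by Rps16 at 1.24 (0.91 to 1.57), Nefl, the light neurofilament, at 1.16 (0.92 to 1.38), Rps23 and Rps28 at 1.09, Rps27a at 1.05 and mt-Co3 at 1.03. Its lowest genes were Mpp4, a scaffold protein of photoreceptor terminals, at -0.86 (-1.07 to -0.66), Ip6k2, an inositol phosphate kinase, at -0.86, the adenylyl cyclase Adcy6 at -0.85 and Grm6, the glutamate receptor of ON bipolar cells, at -0.85. Grm6 stood at 279.7 CPM in the other rods.

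Cluster 38 was nearest to the other rods. It was led by Dbi at 0.77 (0.50 to 1.03), Rps29 at 0.68 (0.42 to 0.94), Rps23 at 0.67, Fgf14, a modulator of sodium channels, at 0.66 (0.45 to 0.88), Dach1, a transcription factor, at 0.63 and Rps14 at 0.61. The lowest were Cyth1 at -0.84, Pou6f1 at -0.77, Gckr, a regulator of glucokinase, at -0.72 and Grina at -0.71. Fgf14 and Dach1 were higher in RGCs, at 1334.7 and 347.1 CPM, than in cluster 38, at 420.3 and 231.9 CPM.

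Clusters 40 and 44 held the most ribosomal protein genes 2-fold higher. In cluster 40, Atp5md, a subunit of ATP synthase, stood at 1.67 (1.16 to 2.15) and Dynlrb1, a dynein light chain, at 1.58 (1.08 to 2.04), followed by Rps27a at 1.50, Rps16 at 1.49 and Dbi at 1.42. Lowest there were Pla2r1 at -1.22, Gtf3c2 at -1.20, the very-long-chain acyl-CoA dehydrogenase Acadvl at -1.12 and Pfkfb2, a regulator of glycolysis, at -1.07. In cluster 44, Rps23 stood at 1.52 (1.23 to 1.81), Rpl37 at 1.46, Rpl37a at 1.40, mt-Co3 and Dbi at 1.39, and Rpl13 at 1.36. Lowest there were Mpp4 at -1.47 (-1.81 to -1.15), Pitpnm3 at -1.18, Esrrb, a nuclear receptor of rods, at -1.16 and Mbd6 at -1.13.

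Other cytoplasmic mRNAs were also higher, by less. The 59 nuclear-encoded genes of the respiratory chain that the files hold had summed log2 ratios of 0.50 (0.45 to 0.56), 0.24 (0.13 to 0.34), 0.34 (0.28 to 0.40), 0.15 (0.09 to 0.21), 0.59 (0.51 to 0.68) and 0.62 (0.55 to 0.69) in clusters 21, 25, 32, 38, 40 and 44. At 50 CPM or more in either sum, 3 of 50, 2 of 48, 2 of 50, 0 of 44, 7 of 49 and 14 of 52 were 2-fold higher, beside 1.08%, 2.94%, 0.555%, 0.108%, 2.53% and 3.45% of all genes tested. In cluster 44, 1 of the 52 was 2-fold lower, beside 5.49% of all genes tested. Some members, such as Ndufa1 at 49.5 CPM in the other rods, passed that minimum only through the clusters, so these counts are given as a description. Cox6c, a subunit of cytochrome c oxidase, stood at 196.1 CPM in the other rods and at 314.6, 289.6, 235.3, 210.1, 354.6 and 286.2 CPM in the 6 clusters. Ndufa1, of complex I, reached 1.53 in cluster 40 and 1.42 in cluster 44.

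A list of 20 abundant cytoplasmic mRNAs had ratios of 0.39, 0.26, 0.27, 0.05, 0.45 and 0.50, and its interval included 0 in cluster 38 (-0.02 to 0.13). Within it, Fth1, the ferritin heavy chain, was at 0.72, 0.06, 0.55, 0.20, 0.78 and 0.82, whereas Ckb, the brain creatine kinase, was between -0.17 and -0.02. The 19 translation factor genes were at 0.28, 0.15, 0.23, 0.05, 0.24 and 0.39, with intervals that included 0 in clusters 25 and 38. Eef1a1, the elongation factor that carries aminoacyl-tRNA, was at 0.67, 0.31, 0.54, 0.32, 0.79 and 0.85. The 19 glycolytic genes had summed ratios below 0, at -0.20, -0.13, -0.29, -0.23, -0.21 and -0.34. Their median ratios were -0.02, -0.10, -0.27, -0.25, -0.28 and -0.33, beside -0.14, -0.12, -0.17, -0.10, -0.39 and -0.22 for all genes. The list was thus at or above all genes in clusters 21, 25 and 40 and below them in 32, 38 and 44. Pfkp and Hk2, which encode early enzymes of the pathway, were below the other rods in each cluster. Not every gene of a cytoplasmic mRNA was therefore higher, and pre-mRNA was not separated from mature mRNA in these counts.

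**Figure D3:**
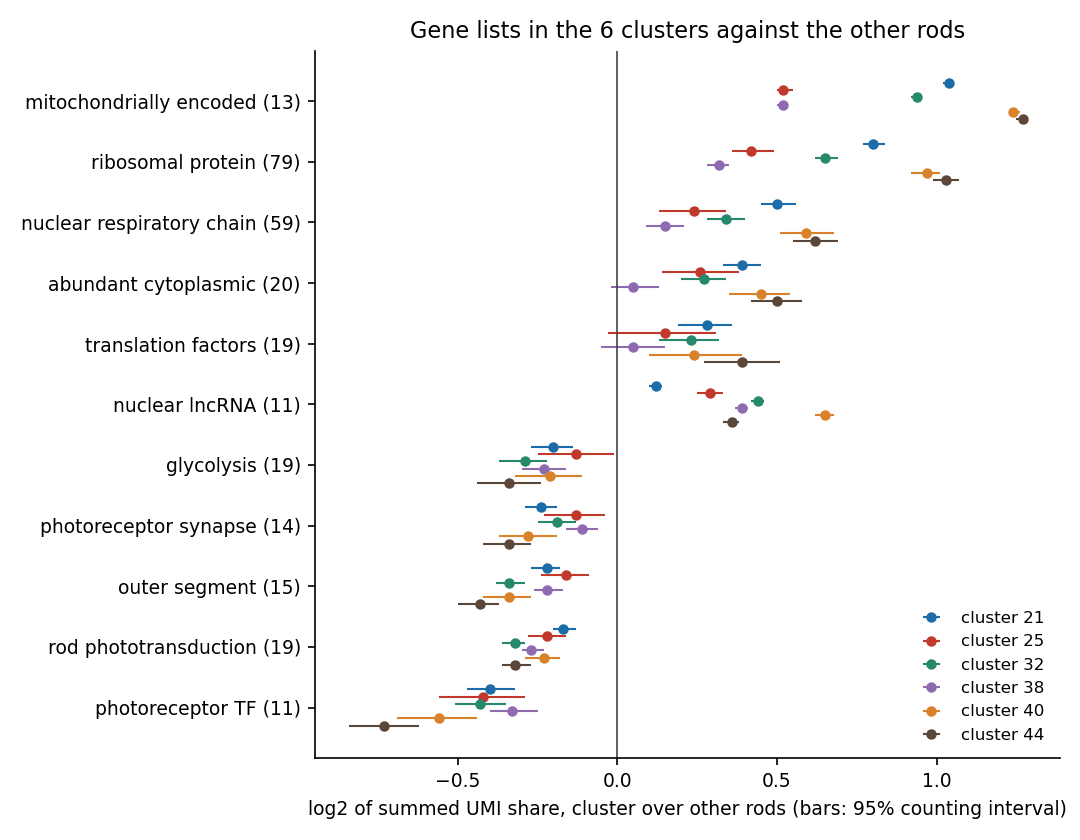
Log2 ratio of the summed UMI share of 11 gene lists (number of genes in parentheses) in each of the 6 clusters over the other rods, with 95% counting intervals as bars and a line at 0. The mitochondrially encoded and ribosomal protein lists lie at 0.32 or more in all 6 clusters, and the rod and photoreceptor lists lie between -0.73 and -0.11.

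Nuclear RNA was not uniformly lower. Malat1, a long non-coding RNA kept in the nucleus, stood at 26404 CPM in the other rods and at 30063.4, 35066.4, 38164.7, 37271, 45747.3 and 36264.6 CPM in clusters 21, 25, 32, 38, 40 and 44. Its ratio was highest in cluster 40, at 0.79 (0.76 to 0.82), which was also among the highest for mitochondrial transcripts. Meg3 was at 0.08, -0.03, 0.35, 0.17, 0.40 and 0.28. Neat1, which forms nuclear paraspeckles, was between -0.63 and -0.16 with intervals that included 0. Malat1 and Meg3 were higher in amacrine cells, at 43137.9 and 11264.7 CPM, than in the other rods, and the part of free RNA in this was not tested. Over the 11 nuclear RNAs of the list, 3, 1, 7, 6, 4 and 5 were above the other rods, beside 38%, 42.3%, 36.2%, 41.0%, 28.3% and 36.0% of all genes. None of the 10 tested was 2-fold apart. Of all genes tested, 0.108% to 3.45% were 2-fold higher and 0.431% to 9.22% lower.

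Genes were then grouped by genomic span, from the GENCODE M39 annotation of GRCm39, with mitochondrial and ribosomal protein genes left out. Genes under 3 kb had log2 ratios of their summed share of 0.17, 0.15, 0.08, -0.01, 0.16 and 0.17 in clusters 21, 25, 32, 38, 40 and 44. Genes of 10 to 30 kb had -0.18, -0.18, -0.22, -0.18, -0.35 and -0.30, and genes of 300 kb or more had -0.04, 0.02, 0.01, 0.06, 0.06 and 0.00. By summed share, the lowest values thus lay in the middle of the range. The median gene under 3 kb was nonetheless below the other rods, at -0.05, -0.18, -0.23, -0.18, -0.39 and -0.25. At 10 to 30 kb the medians were -0.19, -0.25, -0.24, -0.18, -0.49 and -0.34. The totals still held the mitochondrial and ribosomal protein UMIs, which were higher in the clusters. The longest genes, which yield mostly pre-mRNA, held about the same share of all UMIs as in the other rods. Across genes, the Spearman correlation between span and log2 ratio was 0.09 to 0.19 over 12742 to 13007 genes, which are not independent replicates.

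**Figure D4:**
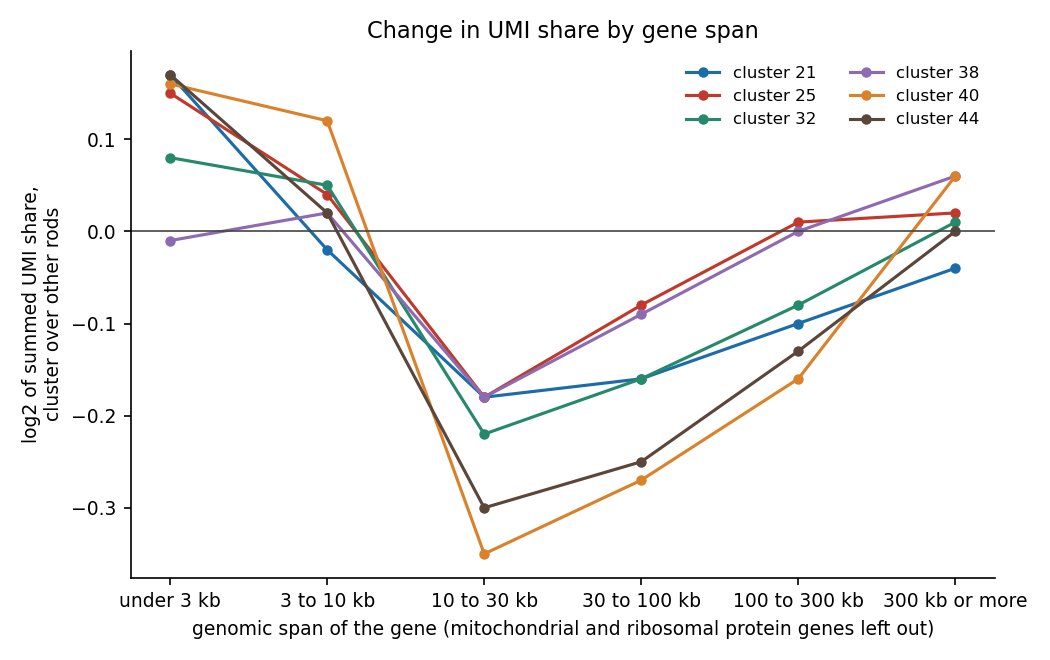
Log2 ratio of the summed UMI share in each cluster over the other rods (y axis) by genomic span of the gene (x axis, 6 classes), without mitochondrially encoded and ribosomal protein genes. Shares are of all UMIs, with those of the genes left out still in the totals. Lines join the classes of a cluster, and all 6 lines are lowest at 10 to 30 kb and near 0 at 300 kb or more.

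Rod phototransduction genes were lower by a small amount. The 19 genes held 0.435% of UMIs in amacrine cells and 0.336% in RGCs, but 0.851% in bipolar, 0.887% in Müller and 1.89% in cone-annotated nuclei. They held 1.63% in the other rods and 1.45%, 1.40%, 1.30%, 1.35%, 1.39% and 1.31% in clusters 21, 25, 32, 38, 40 and 44. The log2 ratio was -0.17 (-0.20 to -0.13), -0.22 (-0.28 to -0.16), -0.32 (-0.36 to -0.29), -0.27 (-0.30 to -0.23), -0.23 (-0.29 to -0.18) and -0.32 (-0.36 to -0.27). None of the 19 genes was 2-fold lower in any cluster, beside 0.431% to 9.22% of all genes tested. Sag is one of the 19, and the clusters were chosen because rod genes were not prominent. The direction of the list is therefore no independent finding. Above the other rods were 6, 3, 3, 3, 5 and 6 of the 19, beside 38%, 42.3%, 36.2%, 41.0%, 28.3% and 36.0% of all genes, so that in clusters 21, 40 and 44 the count was near that of all genes. With mitochondrial UMIs left out of both totals, the ratios were -0.07, -0.18, -0.24, -0.23, -0.11 and -0.19, and with median-of-ratios scaling they were -0.00, -0.12, -0.18, -0.19, 0.04 and -0.09. Counting each gene once per nucleus turned the direction, to 0.09, 0.06, 0.23, 0.15, 0.42 and 0.19, and Sag to 0.16, 0.21, 0.46, 0.42, 0.78 and 0.43. The total is then the number of genes detected, of which the shallower nuclei of the clusters held fewer.

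Members differed. Pde6b, the beta subunit of the rod phosphodiesterase, stood at 1752 CPM in the other rods and at 1222.5, 1336.3, 1147.1, 1419.4, 1226.2 and 991 CPM in the 6 clusters, all below. Cnga1, the rod cyclic nucleotide-gated channel, was at -0.46, -0.46, -0.56, -0.41, -0.69 and -0.88. Slc24a1, the rod sodium-calcium-potassium exchanger, was above the other rods in each cluster, at 0.15 to 0.42, with intervals that left out 0 in clusters 21 and 44. Cluster 44 was lowest for Sag, Pde6b and Cnga1.

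Transcription factors of photoreceptors were lower by more. The 11 genes held 0.396% of UMIs in the other rods, and their ratios were -0.40 (-0.47 to -0.32), -0.42 (-0.56 to -0.29), -0.43 (-0.51 to -0.35), -0.33 (-0.40 to -0.25), -0.56 (-0.69 to -0.44) and -0.73 (-0.84 to -0.62). Their median ratios were -0.35, -0.48, -0.37, -0.31, -0.68 and -0.72, beside -0.14, -0.12, -0.17, -0.10, -0.39 and -0.22 for all genes. Nrl, the factor that sets rod fate, stood at 478.1 CPM in the other rods and at 364.2, 256.7, 384.5, 346.9, 384.1 and 300.5 CPM in the 6 clusters. Nr2e3, which represses cone genes in rods, stood at 338.6 CPM and at 218.9, 243.6, 218.5, 247.8, 211.7 and 189.6 CPM. The amacrine levels were 109.2 CPM for Nrl and 69.8 CPM for Nr2e3, below every cluster. Over the 11 genes, the share was 0.261% in bipolar and 0.426% in cone-annotated nuclei, against 0.239% in cluster 44. Samd11, a photoreceptor corepressor, was lowest in cluster 44 at -1.04 (-1.37 to -0.73). Neurod1 was at 0.04, -0.17, 0.09, 0.09, 0.10 and 0.16, with intervals that included 0.

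The 15 outer segment genes had summed log2 ratios of -0.22, -0.16, -0.34, -0.22, -0.34 and -0.43, and the 14 genes of photoreceptor synapses -0.24, -0.13, -0.19, -0.11, -0.28 and -0.34. The outer segment medians were -0.30, -0.14, -0.42, -0.26, -0.42 and -0.50, and the synapse medians -0.25, -0.22, -0.32, -0.22, -0.39 and -0.48. Those of all genes were -0.14, -0.12, -0.17, -0.10, -0.39 and -0.22. The outer segment median was thus near that of all genes in clusters 25 and 40, and the synapse median equal to it in cluster 40. Both were below it elsewhere. When single detections were counted, the outer segment list was at 0.01 to 0.27 in all 6 clusters, and the synapse list at 0.00 to 0.22 in all but cluster 21. Prph2, a structural protein of outer segment discs, was at -0.32, -0.45, -0.42, -0.38, -0.42 and -0.50. Cone genes were at -0.26, -0.18, 0.04, -0.11, -0.21 and -0.45 over 12 genes. None of the 9 or 10 genes tested was 2-fold higher in any cluster, beside 0.108% to 3.45% of all genes tested. In each of clusters 25, 40 and 44, 1 of the 9 tested was 2-fold lower, beside 4.82%, 9.22% and 5.49% of all genes tested. With so few genes tested, these counts are no result.

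Shares of nuclei with a UMI were compared after each nucleus was thinned to 500 UMIs, which left out none. A Sag UMI was present in 76.2% (74.6 to 77.7) of the other rods and in 67.2%, 60.9%, 63.7%, 71.6%, 68.6% and 60.1% of clusters 21, 25, 32, 38, 40 and 44, against 25.1% of amacrine nuclei and 23.5% of RGC nuclei. Before thinning the shares were 95.9% in the other rods, 79.9% to 92.2% in the clusters and 52.4% in amacrine nuclei, whose median depth was 1065 UMIs. Rps23 was present in 7.48% (6.56 to 8.49) of the other rods and in 14.6%, 11.3%, 15.7%, 11.1%, 14.8% and 20.5% of the clusters, and unthinned in 18.8% and in 20% to 35.0%. The Rps23 background was 2.48% in amacrine nuclei.

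Each cluster was also compared with other rods of like mitochondrial percent. When cluster and reference were both limited to the middle 50% of the cluster's own mitochondrial percent, the ribosomal protein log2 ratio was 0.30, 0.22, 0.17, 0.09, 0.18 and 0.19, in place of 0.80, 0.42, 0.65, 0.32, 0.97 and 1.03. The reference then held 219, 967, 294, 885, 37 and 29 nuclei. The rod phototransduction ratio was -0.26, -0.23, -0.36, -0.25, -0.72 and -0.94, and the references of clusters 40 and 44 held 5 nuclei of cluster 45 each. Without cluster 45 the rod ratios were -0.02, -0.19, -0.15, -0.20, -0.02 and -0.08 and the ribosomal protein ratios 0.35, 0.23, 0.21, 0.10, 0.36 and 0.42. The transcription factor ratios were then -0.12, -0.32, -0.25, -0.23, -0.13 and -0.27, with intervals that included 0 in clusters 21, 40 and 44. Cluster 34 supplied 27 of 32 and 21 of 24 reference nuclei for clusters 40 and 44, so these comparisons are largely with a single cluster.

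Cluster 25 differed from the rest of the 6 by blood and vessel transcripts. Haemoglobin genes led it, with Hbb-bs (GRCm39 chr7:103475730-103482989) at 268 UMIs or 1764.2 CPM against 40.7 CPM in the other rods, a log2 ratio of 5.44 (5.16 to 5.72). Hba-a2 stood at 559.5 and 17.7 CPM, at 4.98 (4.52 to 5.44), Hbb-bt at 5.36 (4.68 to 6.06) and Hba-a1 at 5.71 (4.96 to 6.49). The 2 alpha genes are near-identical copies, as are the 2 beta genes, so their division is uncertain. Beta transcripts made up 70.9% (66.4 to 75.1) of the 443 globin UMIs of cluster 25, 67.4% (61.9 to 72.6) of the 310 in the other rods and 71.4% (63.0 to 78.9) of the 133 in cone-annotated nuclei, with overlapping intervals. Red cell genes other than globins were at or near 0, with 1 UMI for Alas2 and 0 for Slc4a1 and Epb42 in cluster 25.

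A haemoglobin UMI was present in 80 of the 133 nuclei of cluster 25, or 60.2% (51.3 to 68.5), with at most 20 UMIs in 1 nucleus. After thinning to 500 UMIs the share was 47.4% (38.7 to 56.2). It was 3.18% (2.58 to 3.88) in the other rods, 2.44% to 5.52% in clusters 21, 32, 38, 40 and 44, 7.55% (4.67 to 11.4) in cone-annotated nuclei and 1.24% in amacrine nuclei. Cluster 25 held 35.7% of the haemoglobin UMIs of the library with 1.81% of its nuclei and 1.32% of its UMIs. The blood list was also above the other rods in cluster 32, at 1.18 (0.85 to 1.51), in cluster 40, at 0.90 (0.35 to 1.41), and in cluster 38, at 0.54 (0.14 to 0.92). In cluster 32 a single nucleus held 19 haemoglobin UMIs, and the ratio was -0.13 (-0.67 to 0.38) among nuclei of like UMI totals. Against all rods outside the cluster, the ratio was -0.01 in cluster 40 and -0.39 in cluster 38. That reference includes cluster 25, which held 443 haemoglobin UMIs beside 310 in the other rods.

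The 16 endothelial genes were mostly rare in the other rods. Only 8 reached 50 CPM in either sum, and 6 of these did so through cluster 25 alone, so that a count of them 2-fold higher is no result. Flt1, a receptor for vascular endothelial growth factor, stood at 289.6 and 112.3 CPM, a ratio of 1.37 (0.89 to 1.81). Ptprb, an endothelial phosphatase, stood at 197.5 and 18.4 CPM, at 3.42 (2.77 to 4.04), and Egfl7, secreted by endothelial cells, at 4.21 (2.97 to 5.39) from 11 UMIs. Cldn5, of tight junctions, was at 3.05 (1.80 to 4.16) from 9 UMIs. Pecam1 was not higher, at -0.15 (-1.29 to 0.80), and Cdh5, which defines endothelial cells, had 0 UMIs in cluster 25. The list summed to 0.109% of UMIs in cluster 25, a ratio of 1.88 (1.64 to 2.11), and was within -0.00 to 0.29 in the remaining 5 clusters, all with intervals that included 0.

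Mural genes had a summed ratio of 0.38 (-0.01 to 0.75) in cluster 25, and 5 of the 12 were at 0. Gpcpd1 and Ptprm, outside these lists, were at 1.82 (1.33 to 2.27) and 1.45 (1.02 to 1.86). The lowest genes of cluster 25 were Rogdi at -1.78, Tspoap1 at -1.77 and Acadvl at -1.32. The 19 immediate early genes had a summed ratio of 0.56 (0.19 to 0.92) in cluster 25, with 10 of the 11 members that had 20 or more pooled UMIs above the other rods, beside 42.3% of all genes. Of the 4 tested 1 was 2-fold higher, beside 2.94% of all genes tested. This was Dusp1, which at 18.0 CPM in the other rods passed the minimum only through cluster 25, so the count is no result.

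**Figure D5:**
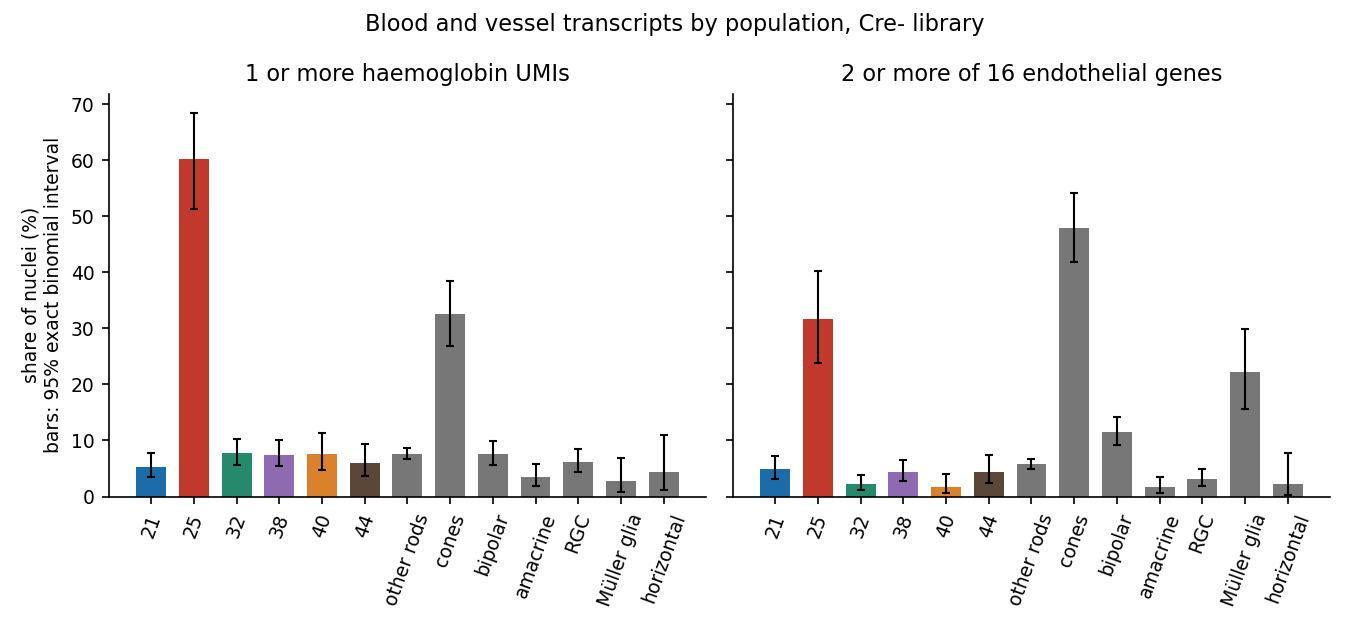
Share of nuclei with 1 or more haemoglobin UMIs (left) and with UMIs of 2 or more of 16 endothelial genes (right) by population of the Cre− library, in percent and not thinned for depth, with 95% exact binomial intervals. Cluster 25 is highest for haemoglobin at 60.2%, and cone-annotated nuclei, whose median depth was 3736 UMIs, are highest for endothelial genes at 47.9%.

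Within cluster 25, 31 nuclei had both a haemoglobin UMI and UMIs of 2 or more endothelial genes, 49 had haemoglobin only, 11 endothelial genes only and 42 neither. The share of rod phototransduction UMIs was 1.42% (1.33 to 1.52) in the nuclei with haemoglobin only, 1.43% (1.23 to 1.66) with endothelial genes only, 1.41% (1.31 to 1.53) with both and 1.33% (1.22 to 1.45) with neither. All 4 intervals overlapped and lay above the shares of 0.435% in amacrine and 0.887% in Müller nuclei. The mitochondrial share was 8.69%, 8.26%, 7.62% and 8.17% in the same order. Nuclei without either kind of transcript had 842.5 UMIs at the median and nuclei with both had 1227, so depth moved with this division. After thinning, UMIs of 2 or more endothelial genes were found in 11.3% (6.45 to 17.9) of cluster 25, 0.779% of the other rods and 8.33% (4.38 to 14.1) of Müller nuclei.

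Among markers of other neurons and glia, RGC and Müller lists were above the other rods in every cluster except 25, and bipolar and amacrine lists were not above by more than 0.02. Nefl stood at 183.9 CPM in the other rods and at 345.4, 237.0, 409.7, 277.5, 389.0 and 389.9 CPM in clusters 21, 25, 32, 38, 40 and 44. All 6 values exceeded the 148.8 CPM of RGCs. Rbpms, which defines RGCs at 936.4 CPM in that class, stood at 39.5 to 108.3 CPM in the clusters and 70.2 CPM in the other rods. Summed over 12 RGC genes, the share was 0.0625% to 0.105% in the clusters and 0.0693% in the other rods, with ratios of 0.39, -0.15, 0.46, 0.21, 0.60 and 0.45. Genes 2-fold higher were 2 of 7 tested, 0 of 6, 2 of 7, 0 of 4, 3 of 6 and 2 of 7, beside 0.108% to 3.45% of all genes tested. They were Nefl, and Nefh and Sncg, the gene for gamma-synuclein, which at 30.4 and 28.3 CPM in the other rods passed the minimum only through the clusters.

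Müller glia genes had ratios of 0.34, -0.06, 0.26, 0.17, 0.40 and 0.45, with Glul, glutamine synthetase, at 0.38, 0.05, 0.34, 0.13, 0.54 and 0.46. Glul stood at 1440.2 CPM in Müller nuclei and at 585.9 to 822.4 CPM in the clusters. The 12 bipolar genes were at -0.21, -0.23, -0.29, -0.06, -0.31 and -0.37, and the 10 amacrine genes between -0.29 and 0.02. Microglia, astrocyte, fibroblast, lens and retinal pigment epithelium genes each held at most 0.0161% of UMIs in any cluster, and 5 horizontal cell genes 0.0188% to 0.0271%. Stress genes were between -0.10 and 0.18, with intervals that included 0 in each cluster. The part of these classes in the ratios of other lists was not tested.

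Doublet scores were not higher in the 6 clusters. They were not matched for depth, and the clusters were shallower, at medians of 702.5 to 1144 UMIs against 1232 in the other rods. The library has no class annotated as blood or endothelium, so a mixture with such material could not be judged from these scores. The median score was 0.115, 0.088, 0.105, 0.121, 0.086 and 0.088 in clusters 21, 25, 32, 38, 40 and 44, against 0.127 in the other rods. Among the 5% of nuclei of the library with the highest scores were 5.10%, 0.752%, 3.17%, 4.80%, 0.345% and 1.68% of the clusters and 7.08% of the other rods.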

How the data were processed

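Nuclei were captured with a 3′ PIPseq kit, and the authors processed the reads with pipseeker 3.3.0 on GRCm39. CellBender 0.3.0, at a cell probability of 0.99, took out ambient RNA. In Monocle3, nuclei were retained between 500 and 10000 transcripts with a mitochondrial part below 20%. The deposited matrix holds whole UMI counts per gene and nucleus, and its sums and detected genes equalled the deposited totals in 7357 of 7357 nuclei. The mitochondrial percent, the clusters and the cell types are the authors' own values. The deposited gene table gives a mean signal per genotype, which equalled the mean of counts per 10000 in 32227 of 32227 genes and was not used for levels. The Cre− library held 11510585 UMIs, and 1 barcode occurred in both libraries.

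Each gene's raw UMIs in a population were added up and scaled to 1000000 (CPM). Log2 ratios are cluster over other rods, with exact conditional Poisson intervals. Shares have exact Clopper-Pearson intervals, and counts of 0 were set to 3 in ratios. Genes were counted as 2-fold apart among those at 50 CPM or more in either sum. Named genes are Sag, Rps19 and Rps23, the 6 highest ratios per cluster among genes at 200 CPM or more there with a UMI in 10 or more nuclei, the 4 lowest among genes at 200 CPM or more in the other rods, and members of the lists, those with most UMIs first. Other members were named after their values were seen, and some genes that the rule names are not reported here. The members and lists were chosen with earlier results of these data known. No nucleus was left out as a doublet. Scores came from Scrublet in scanpy 1.11.5, and nuclei with the highest 5% were left out in an alternative. Gene symbols used by more than 1 identifier were 27 and were summed where listed. The handling of intronic reads and of strand was not given in the sources used here. Python 3.11.15, numpy 2.4.6, scipy 1.17.1 and pandas 2.3.3 were used. The functions were tested on simulated data. Alternatives were other references, thinning to 500 UMIs, like UMI totals, single detections, removal of each gene's highest nucleus or of high doublet scores, other scalings and other CPM minimums.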

Additional observations from a re-analysis of the deposited data

How the results depend on the processing

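No paired analysis was possible because each genotype has 1 library and the clusters come from a single one. With no replicate, a difference between the libraries, animals or pools could not be measured, and depth limits single genes, since 50 CPM is 7.60 to 29.2 UMIs in a cluster. Values below are in the order of clusters 21, 25, 32, 38, 40 and 44, and ratios are log2. The mitochondrial and ribosomal protein lists were above the reference in all 126 values under the alternatives, while counts of genes 2-fold apart changed under most. The clusters were chosen on ribosomal protein transcripts among others, so the direction of that list is not independent of the choice.

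With each gene counted once per nucleus, mitochondrial ratios were 0.30, 0.33, 0.71, 0.48, 1.03 and 0.68, ribosomal protein ratios 0.77, 0.41, 0.67, 0.30, 1.06 and 1.04 and rod phototransduction ratios 0.09, 0.06, 0.23, 0.15, 0.42 and 0.19, the last reversed, as was Sag (0.16, 0.21, 0.46, 0.42, 0.78 and 0.43). Genes 2-fold higher numbered 40, 238, 21, 6, 167 and 192 and lower 32, 360, 104, 64, 614 and 322, and the blood ratio of cluster 25 was 3.97. Also reversed were the outer segment list (0.01, 0.09, 0.12, 0.11, 0.27 and 0.05), the synapse list in clusters 25, 32, 38, 40 and 44 (0.00, 0.13, 0.09, 0.22 and 0.05), the bipolar list in clusters 21, 32, 40 and 44 (0.05, 0.08, 0.19 and 0.04), a list of sex-linked genes in clusters 21, 32, 38 and 40 (0.09, 0.22, 0.24 and 0.28), glycolysis in clusters 25 and 40 (0.01 and 0.08) and cone genes in clusters 38 and 40 (0.02 and 0.10).

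Against every rod nucleus outside the cluster, which puts the other 5 clusters into the reference, the ratios became 0.73, 0.14, 0.61, 0.15, 0.90 and 0.94 for mitochondrial, 0.59, 0.15, 0.41, 0.05, 0.72 and 0.81 for ribosomal protein and -0.09, -0.14, -0.26, -0.20, -0.16 and -0.25 for rod genes, with 10, 144, 14, 4, 46 and 81 genes higher and 7, 178, 23, 7, 318 and 180 lower. Reversed were the nuclear RNA list in cluster 21 (-0.01), the blood list in clusters 38 (-0.39) and 40 (-0.01) and Rps19 in cluster 38 (-0.02).

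Thinning to 500 UMIs gave mitochondrial ratios of 0.97, 0.50, 0.91, 0.46, 1.22 and 1.25, ribosomal protein ratios of 0.73, 0.41, 0.63, 0.25, 0.94 and 0.99 and rod ratios of -0.17, -0.26, -0.34, -0.32, -0.24 and -0.37, with 79, 450, 46, 28, 137 and 216 genes higher and 156, 536, 149, 106, 612 and 486 lower.

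Nuclei of like UMI totals gave mitochondrial ratios of 0.98, 0.49, 0.94, 0.43, 1.21 and 1.21, ribosomal protein ratios of 0.76, 0.42, 0.64, 0.22, 0.83 and 0.96 and rod ratios of -0.19, -0.22, -0.41, -0.31, -0.65 and -0.35, with 43, 228, 38, 16, 241 and 154 genes higher and 53, 357, 134, 60, 720 and 350 lower. The blood list of cluster 32 was then at -0.13 in place of 1.18.

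Without each gene's highest nucleus, 25, 60, 13, 2, 85 and 106 genes were higher and 47, 461, 76, 35, 680 and 415 lower, mitochondrial ratios were 1.02, 0.48, 0.93, 0.51, 1.23 and 1.26, ribosomal protein ratios 0.77, 0.31, 0.62, 0.28, 0.91 and 0.99, rod ratios -0.19, -0.29, -0.34, -0.28, -0.26 and -0.34, and blood and endothelial ratios of cluster 25 4.94 and 1.66.

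Without the nuclei of highest doublet score, mitochondrial ratios were 1.09, 0.56, 0.99, 0.55, 1.29 and 1.31, ribosomal protein ratios 0.84, 0.44, 0.68, 0.33, 0.99 and 1.06 and rod ratios -0.17, -0.23, -0.33, -0.28, -0.24 and -0.33, with 63, 155, 27, 8, 123 and 161 genes higher and 28, 248, 53, 33, 454 and 289 lower.

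Median-of-ratios scaling raised the ratios to 1.20, 0.63, 1.08, 0.60, 1.52 and 1.49 for mitochondrial, 0.97, 0.53, 0.80, 0.39, 1.24 and 1.26 for ribosomal protein and -0.00, -0.12, -0.18, -0.19, 0.04 and -0.09 for rod genes, and turned cluster 40 for rod genes, for cone genes (0.06) and for glycolysis (0.06). It gave 114, 218, 62, 9, 295 and 318 genes higher and 6, 175, 24, 13, 210 and 137 lower.

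At a minimum of 10 CPM, 282, 1108, 270, 183, 418 and 711 genes were higher and 414, 1126, 686, 506, 2014 and 1182 lower, and at 200 CPM 17, 8, 6, 0, 44 and 47 and 0, 5, 0, 0, 8 and 16.

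The remaining alternatives were chosen after seeing the data. With mitochondrial UMIs left out of both totals, ribosomal protein ratios were 0.90, 0.46, 0.74, 0.35, 1.09 and 1.16 and rod ratios -0.07, -0.18, -0.24, -0.23, -0.11 and -0.19. Nuclei of like mitochondrial percent gave 0.17, 0.19, 0.15, 0.13, 0.17 and 0.17 for mitochondrial, 0.30, 0.22, 0.17, 0.09, 0.18 and 0.19 for ribosomal protein and -0.26, -0.23, -0.36, -0.25, -0.72 and -0.94 for rod genes, and 0.16, 0.19, 0.15, 0.13, 0.14 and 0.14, 0.35, 0.23, 0.21, 0.10, 0.36 and 0.42 and -0.02, -0.19, -0.15, -0.20, -0.02 and -0.08 with cluster 45 out of the reference. The endothelial ratio of cluster 25 was then 1.59 and 1.60. Leaving out cluster 45 alone gave rod ratios of -0.12, -0.18, -0.28, -0.22, -0.19 and -0.27. The cause of these shifts was not tested.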
